A study of Rattus norvegicus with 17 samples.

Results

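The 9 genes described here are immediate early genes, the genes that neurons switch on soonest after activity. They were chosen by name, as a fixed list of Ensembl identifiers for Fos, Fosb, Junb, Egr1, Egr2, Arc, Npas4, Nr4a1 and Dusp1, and all 9 were found among the 26402 genes of the deposited table. Each value is the RNA level of a gene in CA1/CA2 tissue from the left hippocampus of 1 virgin male Fischer-344 rat aged 12 months. The 10 vehicle rats (named G1 and a rat number) were injected with polyethylene glycol, and the 7 ENZ rats (named G2 and a rat number) with the PKCβ-selective inhibitor Enzastaurin at 25 mg/kg in the same vehicle. Both groups had daily subcutaneous injections for 3 days, swam 6 Morris maze trials a day that began 30 to 45 minutes after injection, and were killed directly after the probe trial on day 3. Every rat was therefore sampled after swimming, and the series holds no rat kept out of the maze, so a level cannot be read as a rise from rest. The dentate gyrus and the alveus were dissected away, but markers of CA1/CA2 neurons or of other cell types were not checked, because the gene table used here matched 0 of the table's identifiers.

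Across rats, levels of the 9 genes were positively correlated, most closely for Egr1, Arc and Nr4a1 and most loosely for Fos and Fosb. The 36 pairs of genes had a median Pearson r of 0.74 over 16 rats. Over all 95945878 pairs of genes tested, the median was 0.001 and the 95th percentile 0.509. Those pairs were not matched to the 9 genes for variation among rats. After adjustment over all genes 13 of the 36 pairs passed in both directions, a share that was not counted over all pairs of genes. The count was 6 to 14 without 1 rat and 4 with the first principal component of all genes as a covariate. None of the 13 held Fos, Fosb or Npas4. With each of these as the reference, 0 of 13852 genes passed (0%), so no pair with them could. Levels in the ENZ group overlapped those of the vehicle group for each of the 9 genes, which was not counted for other genes. At an adjusted p under 0.05, 0 of the 9 differed between the groups, as did 0 of 13853 genes tested (0%). Both results leave out vehicle rat G1_80, whose library held 33422 reads, and are given with it as well.

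Immediate early genes need no newly made protein to be transcribed. Calcium entry, cyclic AMP and MAP kinase signalling, which PKC can feed into, act on transcription factors already bound at their promoters, chiefly CREB at the cyclic AMP response element (CRE) and serum response factor at the CArG box. In the hippocampus their RNAs climb within minutes of exploration, learning or seizures and decay soon after, so they serve as a mark of recently active neurons. Fos, Fosb and Junb encode subunits of the AP-1 transcription factor, Egr1 and Egr2 zinc finger factors, Npas4 a basic helix-loop-helix factor tied to inhibitory synapses and Nr4a1 an orphan nuclear receptor. Arc encodes a synaptic protein that removes AMPA receptors, and Dusp1 a phosphatase that switches MAP kinases off.

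Promoter sequences of the genes are shown for reference, and any part of theirs in the correlations was not tested. RefSeq windows of assembly GRCr8 were at hand for 7 of the 9 genes (not for Fos and Arc), while the reads had been aligned to rn5, so positions below serve for the sequence only. Among the 250 bases before the start, the CRE core TGACG, searched on both strands, was found in 5 of these 7 genes, namely Dusp1, Egr1, Egr2, Junb and Nr4a1, and in 18.2% of 33469 such windows. The full CRE, TGACGTCA, which holds the core on each strand, occurred in Dusp1 and in 1.59% of windows. A CArG box was found in Egr1 and Egr2 and in 1.5% of windows. In Egr1 the CArG boxes lay at -105 to -96 and at -83 to -74 from the start, and in Egr2 at -83 to -74. In both genes a CRE core stood at -66 to -62, with 7 bases between it and the nearer CArG box. The AP-1 site TGANTCA, with C or G at N, was in 0 of the 7 windows and in 4.05% of all. A match describes the letters only. The windows of Junb (chr19:40080876-40081125, + strand), Dusp1 (chr10:17184603-17184852, + strand) and Nr4a1 (chr7:134259888-134260137, + strand) and the stretch of Egr2 that holds both sites (chr20:21054501-21054526, - strand) are printed 5′ to 3′, with CRE cores and the CArG box in capitals.
Junb: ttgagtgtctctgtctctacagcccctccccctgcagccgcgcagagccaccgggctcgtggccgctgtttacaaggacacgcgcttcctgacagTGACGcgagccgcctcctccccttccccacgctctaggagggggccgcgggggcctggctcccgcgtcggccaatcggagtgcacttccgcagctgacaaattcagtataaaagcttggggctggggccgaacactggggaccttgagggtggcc
Dusp1: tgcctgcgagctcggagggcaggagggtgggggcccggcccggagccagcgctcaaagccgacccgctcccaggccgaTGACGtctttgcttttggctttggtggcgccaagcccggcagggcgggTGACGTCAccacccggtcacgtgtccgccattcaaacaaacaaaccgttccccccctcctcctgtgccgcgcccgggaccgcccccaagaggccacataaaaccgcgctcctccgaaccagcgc
Nr4a1: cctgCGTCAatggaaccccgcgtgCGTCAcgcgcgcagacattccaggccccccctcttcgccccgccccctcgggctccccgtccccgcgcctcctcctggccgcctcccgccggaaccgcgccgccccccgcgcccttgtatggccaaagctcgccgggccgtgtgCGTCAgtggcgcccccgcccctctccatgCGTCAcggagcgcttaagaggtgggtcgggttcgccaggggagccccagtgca
Egr2: gtCCATATATGGgcagcgaCGTCAcg

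The deposited values are normalized counts, which are gene read counts divided by a size factor per rat, and 100% of the values above 0 came back as whole reads in every rat. Recovered reads on genes ran from 2716777 to 20731523 in 9 vehicle rats and from 3880391 to 11531705 in the 7 ENZ rats. The medians were 8710997 reads in these vehicle rats and 5182015 in the ENZ rats, so the ENZ libraries were mostly shallower. In rat G1_80, whose library held 33422 reads, each read counted as 103.4 normalized counts. This library held 4 reads of Junb, 2 each of Fos and Npas4, 1 of Nr4a1 and 0 of Fosb, Egr1, Egr2, Arc and Dusp1. A count of 0 there allows up to 310.1 normalized counts (3 reads, counting error only), which lies above the highest level of Fosb, Egr2 and Dusp1 in the other 16 rats. For Arc the lowest of the other rats, 345.7 normalized counts, lies above that limit. Comparisons therefore rest on 9 vehicle and 7 ENZ rats, and all 17 rats, or 13 rats (also leaving out rats G1_8, G1_44 and G1_134), served as alternatives.

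Of the AP-1 subunits, Fos differed most in level between groups, although not beyond the spread among rats. Fos (ENSRNOG00000008015) ran from 10.2 normalized counts in rat G1_143 to 49.9 in rat G1_8 among vehicle rats, with a median of 29.7, and from 11.4 in rat G2_161 to 33.3 in rat G2_26 among ENZ rats, with a median of 19.6. Of the 7 ENZ rats, 6 lay below the vehicle median, yet none fell below the vehicle range. Mean Fos was 27.9 ± 12.4 (SD, n = 9) in vehicle and 19.8 ± 7.34 (SD, n = 7) in ENZ. On log2(normalized count + 1), the fold change of ENZ over vehicle was -0.41 (standard error, SE, 0.28, 95% interval -0.99 to 0.16; limma p = 0.15 before adjustment, two-sided exact permutation p = 0.195). Without rat G1_143, the lowest vehicle rat, this difference was -0.57 (limma p = 0.0307 before adjustment). In that fit 297 of 13887 genes had an unadjusted p under 0.05, and the adjusted p of Fos stayed near 1 (limma, 0.999996). Leaving out rat G1_8, the highest vehicle rat, gave a difference of -0.30 (limma p = 0.28 before adjustment). These were the ends of the range over the 16 fits that each left out 1 rat. In these bulk samples, fewer cells that express a gene and less of its RNA per cell cannot be told apart.

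Fosb (ENSRNOG00000046667), whose protein products include the long-lived ΔFosB, varied less among rats than most of the 9 genes, as did Junb. Both still varied more than the median of all genes tested. Vehicle rats held 61.8 to 95.6 normalized counts of Fosb (median 66.6) and ENZ rats 49.4 to 103.8 (median 70.3). The ENZ values were the wider set, with 3 rats below the vehicle range and rat G2_26 above it. Means were 73.4 ± 12.6 (SD, n = 9) and 70.3 ± 17.9 (SD, n = 7), and on the log2 scale ENZ differed by -0.08 (SE 0.13, exact permutation p = 0.583). Junb (ENSRNOG00000042838), the Jun partner in the list, spanned 90.8 to 171.3 normalized counts (median 122.6) in vehicle and 84.8 to 167.4 (median 108.1) in ENZ. Rats G1_8 and G2_26 held the highest Junb of their groups, and 1 ENZ rat lay below the vehicle range. The Junb means of 122.9 ± 25.0 (SD, n = 9) and 117.1 ± 30.5 (SD, n = 7) differed by -0.08 on the log2 scale (SE 0.14, exact permutation p = 0.606).

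The zinc finger factors covered a wider range of levels than Fosb and Junb. Egr1 (ENSRNOG00000019422), also known as zif-268 and widely used to map hippocampal plasticity, lay between 199.5 (rat G1_134) and 686.2 (rat G1_8) normalized counts in vehicle, with a median of 443.0, and between 246.7 (rat G2_161) and 701.6 (rat G2_26) in ENZ, with a median of 320.3. Rats G2_26 and G2_62, at 701.6 and 652.8, stood well above the other ENZ rats, of which the next was at 414.3. The means were nearly equal, at 417.7 ± 149.1 (SD, n = 9) in vehicle and 412.0 ± 190.2 (SD, n = 7) in ENZ. The log2 difference was -0.05 (SE 0.26, exact permutation p = 0.862). Egr2 (ENSRNOG00000000640), best known from myelinating Schwann cells and also induced in neurons, was a low-count gene with 5 to 163 reads per rat. It ran from 8.72 to 41.7 normalized counts (median 17.1) in vehicle and from 5.69 to 53.8 (median 12.4) in ENZ. Rat G2_26 lay above the vehicle range and 3 ENZ rats below it. Egr2 means were 18.9 ± 10.9 (SD, n = 9) and 17.1 ± 16.9 (SD, n = 7), which on the log2 scale was a difference of -0.35 (SE 0.40, exact permutation p = 0.45).

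Npas4 (ENSRNOG00000020009), which responds to calcium entry almost only in neurons, had the fewest reads, from 2 in rat G2_161 to 128 in rat G1_8. Vehicle rats ran from 5.87 (rat G1_134) to 32.8 (rat G1_8) normalized counts with a median of 17.997, and ENZ rats from 2.27 (rat G2_161) to 24.2 (rat G2_26) with a median of 11.7. Of the ENZ rats, 5 lay below the vehicle median, and rat G2_161 lay below every vehicle rat. The log2 difference was -0.44 (SE 0.38, exact permutation p = 0.327), with means of 17.7 ± 8.45 (SD, n = 9) and 13.4 ± 7.33 (SD, n = 7). Nr4a1 (ENSRNOG00000007607), also called Nur77, spanned 134.9 to 386.0 normalized counts (median 235.5) in vehicle and 121.3 to 444.0 (median 184.5) in ENZ. Rats G2_26 and G2_62, at 444.0 and 443.2, exceeded every vehicle rat, and rat G2_152 lay below all of them. On the linear scale, mean Nr4a1 was 240.2 ± 78.8 (SD, n = 9) in vehicle and higher, 250.1 ± 137.4 (SD, n = 7), in ENZ, while the log2 difference was -0.05 (SE 0.26, exact permutation p = 0.881).

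The remaining genes act outside the nucleus or on kinase signalling. Arc (ENSRNOG00000043465), whose RNA travels to dendrites, held 421.1 (rat G1_98) to 902.1 (rat G1_8) normalized counts in vehicle, with a median of 599.2, and 345.7 (rat G2_161) to 1036 (rat G2_62) in ENZ, with a median of 505.2. Rat G2_62 exceeded the vehicle range and 2 ENZ rats lay below it. Its means were 605.1 ± 158.5 (SD, n = 9) and 613.2 ± 262.7 (SD, n = 7), the ENZ mean being the higher on this linear scale, while the log2 difference was -0.05 (SE 0.21, exact permutation p = 0.844). Dusp1 (ENSRNOG00000003977), the feedback phosphatase, was at 56.7 (rat G1_134) to 140.9 (rat G1_8) normalized counts in vehicle (median 85.9) and at 58.0 (rat G2_161) to 119.7 (rat G2_26) in ENZ (median 73.2). All 7 ENZ rats lay within the vehicle range. Means of 94.5 ± 29.0 (SD, n = 9) and 79.95 ± 24.2 (SD, n = 7) differed by -0.23 on the log2 scale (SE 0.19, exact permutation p = 0.305).

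**Figure D1:**
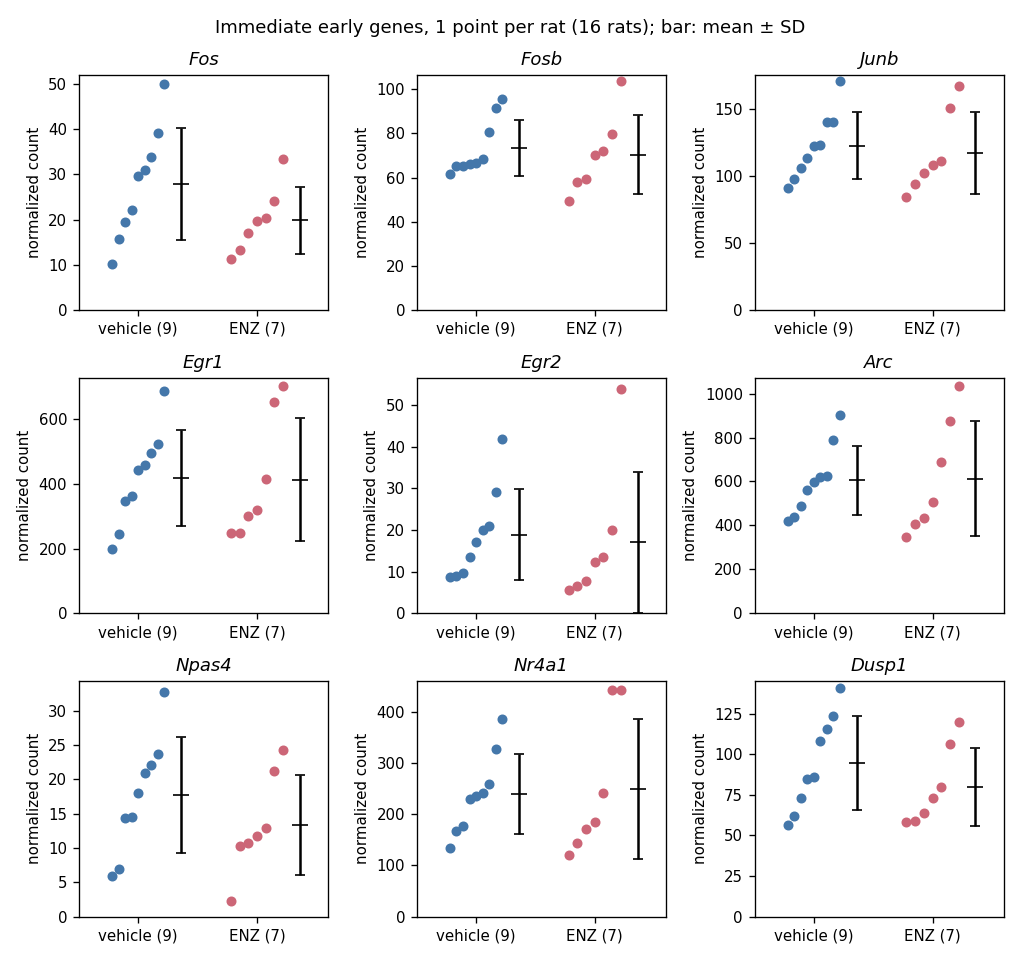
Normalized counts of the 9 genes (linear axes from 0), 1 point per rat for 9 vehicle rats (blue) and 7 ENZ rats (red), sorted within each group, with the mean and SD beside the points. The groups overlap for every gene, and for Egr1 and Nr4a1 rats G2_26 and G2_62 stand clear of the other 5 ENZ rats.

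The comparison of ENZ with vehicle asked whether levels of these genes differed after Enzastaurin injections over the days of maze testing. PKCβ activity in the tissue is not part of these data. By limma with a mean-variance trend, 0 of the 9 genes had an adjusted p under 0.05, as did 0 of 13853 genes tested (0%), and the smallest adjusted p over all genes was 0.9998. At an unadjusted p under 0.05 there were 0 of the 9 genes and 324 genes in all (2.34%). The edgeR and DESeq2 tests on recovered reads of the same 16 rats also gave 0 of the 9 genes at either threshold, with 0% of all genes after adjustment and, before it, 338 of 13853 (2.44%) by edgeR and 309 of 20796 (1.49%) by DESeq2. All 9 log2 fold changes were below 0 in the limma fit, with a median of -0.08 for the 9 genes and -0.0043 for all genes tested, and the 95% interval held 0 for each. Because levels of the genes were correlated across rats, their shared sign is not 9 separate observations. The intervals allow ENZ levels of 0.778 to 1.15 times the vehicle level for Fosb, 0.665 to 1.4 times for Egr1, 0.713 to 1.31 times for Arc and 0.423 to 1.28 times for Npas4, on values with 1 added.

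With rat G1_80 included, signs and precision changed. Over all 17 rats, the log2 fold change went from -0.08 to 0.54 for Fosb, from -0.05 to 0.81 for Egr1, from -0.35 to 0.07 for Egr2, from -0.05 to 0.87 for Arc, from -0.05 to 0.07 for Nr4a1 and from -0.23 to 0.42 for Dusp1. Those of the genes that had 2 or more reads in rat G1_80 moved further below 0, to -0.71 for Fos, -0.26 for Junb and -0.81 for Npas4. The median over all genes tested also moved, to 0.16 with rat G1_80. Standard errors grew to 1.07 for Arc and 1.02 for Egr1, and 0 of the 9 genes passed (limma adjusted p of 0.786 or higher). Exact permutation p-values over the 17 rats were 0.138 to 0.928. Over the 13 rats, the log2 fold changes were again all below 0, from -0.06 for Arc and Junb to -0.67 for Npas4 (exact permutation p = 0.0985 for Npas4).

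**Figure D2:**
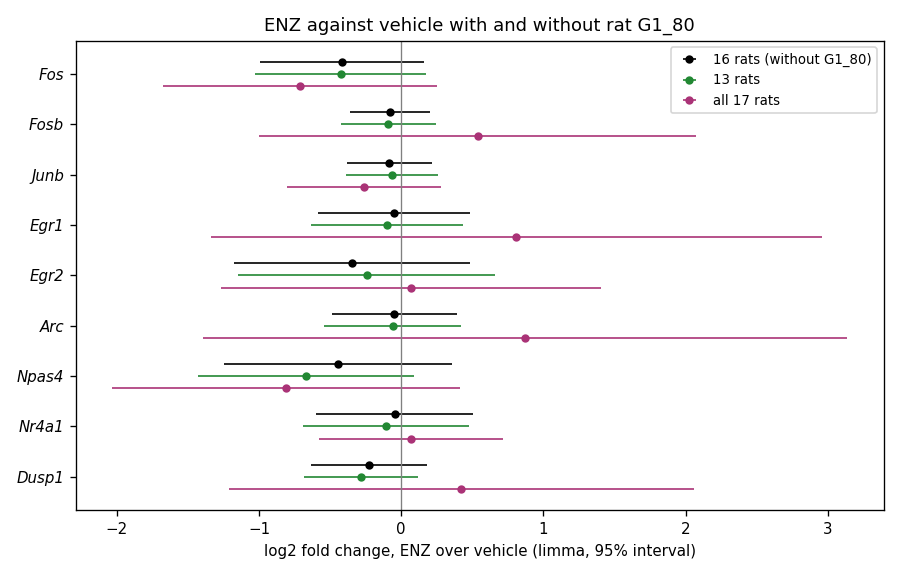
Log2 fold change of ENZ over vehicle for each gene (points) with 95% limma intervals (lines), over 16 rats (black), 13 rats (green) and all 17 rats with G1_80 (purple). Every interval crosses 0, and with rat G1_80 those of Arc and Egr1 widen to standard errors of 1.07 and 1.02.

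The genes differed in how much they varied among rats. The coefficient of variation (SD over mean of normalized counts, 16 rats) was 73.9% for Egr2, 50.9% for Npas4, 45.0% for Fos, 42.7% for Nr4a1, 39.1% for Egr1, 33.3% for Arc, 30.8% for Dusp1, 22.2% for Junb and 20.3% for Fosb. All 9 exceeded the median over all genes tested, 13.8%, and they lay between the 70.0th (Fosb) and the 98.8th (Egr2) percentile of those genes. Jackknife standard errors were 14.3 percentage points for Egr2, 9.70 for Npas4, 7.92 for Fos, 5.56 for Nr4a1, 5.09 for Egr1, 4.77 for Arc, 3.72 for Dusp1, 3.07 for Junb and 3.52 for Fosb. Neighbours in this order lay closer together than either of their standard errors, except Egr2 and Npas4, Egr1 and Arc, and Dusp1 and Junb. Counting error alone would give 3.68% for Arc, 4.39% for Egr1, 5.78% for Nr4a1, 17.7% for Fos, 20.7% for Egr2 and 21.8% for Npas4. Beyond counting error, the variation was 70.97% for Egr2, 46.0% for Npas4 and 33.1% for Arc. Between the lowest and the highest of the 16 rats, levels spanned 2.10-fold for Fosb, 3.00-fold for Arc, 3.52-fold for Egr1 and 9.46-fold for Egr2. Single rats carried part of this: without rat G2_26 the Egr2 value was 61.8%. With rat G1_80, the coefficients ran from 33.2% to 173.7%, against a median of 28.4% over all genes.

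**Figure D3:**
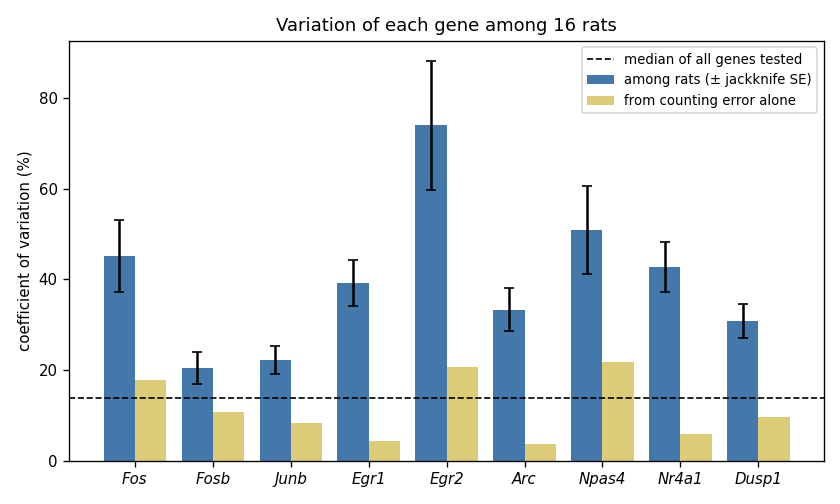
Coefficient of variation of each gene among 16 rats (blue bars, error bars are jackknife standard errors), the part that counting error alone would give (yellow bars) and the median of all genes tested (dashed line at 13.8%). Each blue bar stands above its yellow bar and above the line, with Egr2 highest at 73.9%.

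The same rats were high, or low, for most of the genes. When the log2 levels of each gene were standardised over the 16 rats, the mean of the 9 genes ran from -1.39 SD units in rat G2_161 to 1.46 in rat G1_8. Rats G1_8, G2_26 and G1_89 lay above the 16-rat median in 9 of 9 genes, and rats G2_161 and G2_125 lay below it in 9 of 9. Rats G1_18 and G2_62 were above the median in 8 genes, and rats G2_152, G1_44 and G2_116 below it in 8. Both groups held rats at each end: the mean of the 9 genes ran from -1.39 to 1.45 in ENZ (median -0.45) and from -0.85 to 1.46 in vehicle (median 0.23). Rat G2_62 broke the pattern for 1 gene, with the highest Arc of all at 1036 normalized counts but Fos at 13.3, the third lowest.

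**Figure D4:**
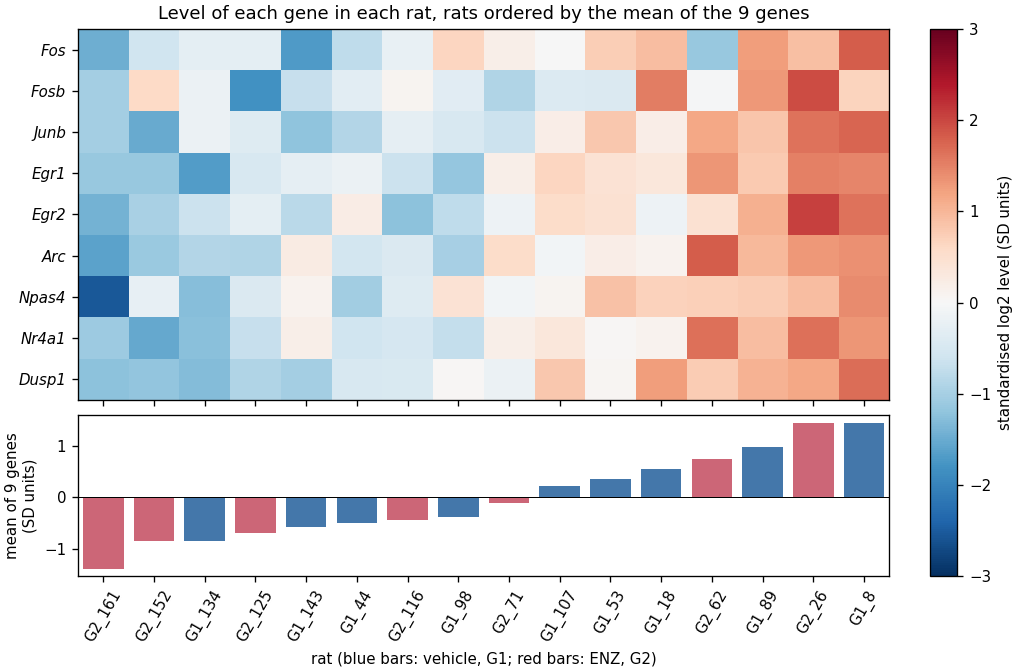
Standardised log2 level (SD units, colour) of each gene (rows) in each of 16 rats (columns), with rats ordered by the mean of the 9 genes, which the bars show (blue for vehicle, red for ENZ). Columns are mostly of a single colour, from rat G2_161 at -1.39 to rat G1_8 at 1.46, and ENZ and vehicle rats are interleaved.

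All 36 pairs of genes were positively correlated over the 16 rats, with Pearson r from 0.41 to 0.96 and a median of 0.74. Spearman's rho ran from 0.38 to 0.94 with a median of 0.73. Over all pairs of genes tested, the 95th percentile of r was 0.509, and 0.472% of pairs reached 0.74 or more. The closest pair was Arc and Nr4a1 (r = 0.96, rho = 0.94), followed by Egr1 and Nr4a1 (r = 0.95, rho = 0.93) and Egr1 and Arc (r = 0.91, rho = 0.87). For these pairs the permutation p of r was 1e-05, the smallest that 100000 resamples can give, that of rho was 1e-05, 1e-05 and 4e-05, and r without the 2 rats farthest from the median of the gene named before the other was 0.96, 0.94 and 0.92. Egr1 and Egr2 had r = 0.88 and rho = 0.89 (permutation p = 2e-05 and 3e-05), with r = 0.89 without 2 rats. The weakest pairs joined Fos to Arc (r = 0.41, rho = 0.41; permutation p = 0.115 and 0.112) and Fos to Nr4a1 (r = 0.41, rho = 0.44; permutation p = 0.113 and 0.0948), each with r = 0.38 without 2 rats. Fos went more closely with Dusp1 (r = 0.74, rho = 0.80; permutation p = 0.00142 and 0.00034) and with Npas4 (r = 0.68, rho = 0.69; permutation p = 0.00328 and 0.00432), and r without 2 rats was 0.63 and 0.73. In all, 30 of the 36 pairs had an unadjusted permutation p under 0.05 for r, and 30 for rho. Without the 2 rats, r ran from 0.31 to 0.96 over the 36 pairs, with a median of 0.70.

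To adjust over all genes rather than over these pairs, every other gene was regressed by limma on the log2 level of each of the 9 genes in turn. Nr4a1 was joined by 6 of the other 8 as genes that rose with it (adjusted p under 0.05), against 1.73% of 13852 genes. The same count of 6 was reached for Arc (1.18% of all genes), Egr1 (0.874%) and Dusp1 (0.101%). For Junb it was 5 (0.0794%) and for Egr2 it was 3 (0.0289%). These counts hung on single rats. The count with Dusp1 was 1 without rat G1_8 (0.0216% of all genes), 3 without rat G1_134 (0.0576%) and 0 over the 13 rats (0.0144%). Without rat G2_152, rat G2_161 or rat G2_26 it was 2 with Dusp1 (0.0505%, 0.0576% and 0.0505%). In the same 3 fits it was 1 with Egr2 (0.0144%, 0.0144% and 0.00721%) and 0 with Junb (0% in each). Without rat G1_89 it was 2 with Dusp1 (0.0505%) and 1 with Egr2 (0.0144%). With Junb it was 2 without rat G1_8 (0.0432%). With Arc it was 2 without rat G2_26 (0.339%) and 3 without rat G2_62. Without rat G2_62 the shares of all genes fell as well, to 0.0793% for Nr4a1, 0.0432% for Arc and 0.0721% for Egr1, where 4, 3 and 4 of the other 8 passed. With Fos, Fosb and Npas4 as the reference, 0 of the other 8 passed, and so did 0 of all genes (0%) in each case. A pair counted as called when it passed in both directions, so no pair with these 3 genes could be called. Of the 36 pairs, 13 were called, all of them positive. In a single direction, Npas4 passed with Arc, Nr4a1, Egr1 and Dusp1 as the reference (limma adjusted p = 0.0206, 0.0275, 0.0390 and 0.0480). It did not pass with Junb or Egr2 (limma adjusted p = 0.136 and 0.170). Fos and Fosb passed in neither direction. With the first principal component of all genes as a covariate, 4 pairs were called. The counts with single genes were then 3 for Egr1 (0.0289% of all genes) and 2 each for Arc and Nr4a1 (0.0217% each). For Egr2 the count was 1 (0.0144%), for Dusp1 1 (0.0578%) and for Junb 0 (0%). So the shares of all genes fell for most of these genes too. The limma adjusted p for Arc and Nr4a1 was 4.98e-07 with Arc and 6.24e-07 with Nr4a1 as the reference.

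**Figure D5:**
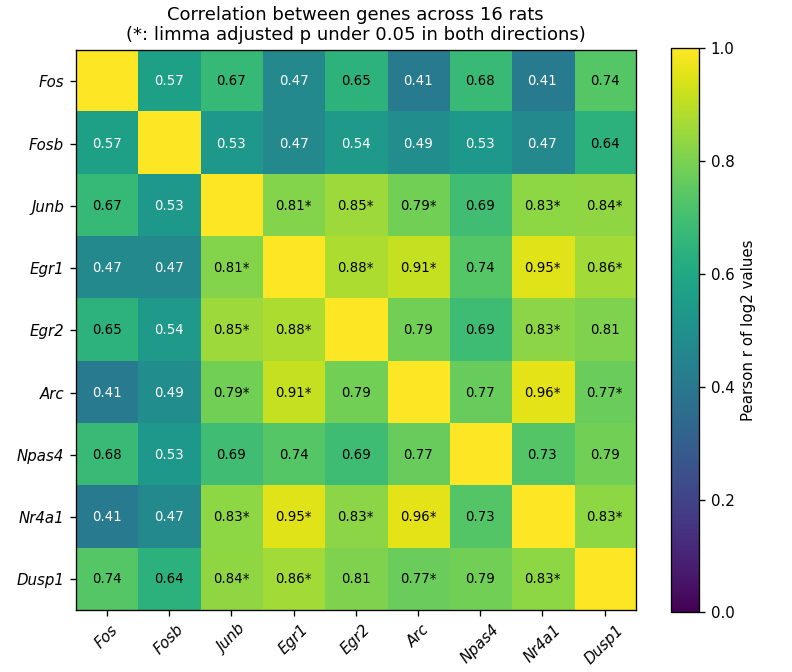
Pearson r of log2 values for each pair of genes over 16 rats (colour and number), with an asterisk where limma gave an adjusted p under 0.05 in both directions. Egr1, Arc and Nr4a1 form the tightest block (0.91 to 0.96). The rows of Fos, Fosb and Npas4 hold no asterisk, as 0 of all genes passed with these as the reference.

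The co-variation was present within each treatment group. Within the 9 vehicle rats alone the median r of the 36 pairs was 0.71 (lowest 0.44), and within the 7 ENZ rats alone it was 0.78 (lowest 0.39), with 36 of 36 pairs above 0 in each. With treatment as a covariate, 12 pairs were called and the median r was 0.75. The number of called pairs depended on single rats more than the correlations did. It was 6 without rat G2_152, rat G2_161 or rat G2_26, 7 without rat G1_8 and 8 without rat G1_89, while the median r stayed between 0.69 and 0.78 over the 16 fits that each left out 1 rat. The pairs called in all 16 of those fits were 5, namely Arc with Nr4a1, and Egr1 with Arc, Nr4a1, Egr2 and Dusp1. Over the 13 rats the median r was 0.69 with 8 of the 13 pairs still called.

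Depth was compared with the level of each gene, and by limma 0 of the 9 genes, and 0 of 13853 genes in all (0%), moved with log10 reads at an adjusted p under 0.05. The deepest library, rat G1_8, was the highest vehicle rat in 8 of the 9 genes, and the shallowest of the 16, rat G1_134, was the lowest vehicle rat in 4. The part of depth in the co-variation was not tested beyond the fits given here. Pearson r with log10 reads was 0.51 for Fos (rho = 0.53; permutation p = 0.0433 and 0.0371, limma adjusted p = 0.998) and 0.45 for Npas4 (rho = 0.43; permutation p = 0.0775 and 0.0993), and ran from 0.09 to 0.40 for the other 7. Without rats G1_8 and G1_134, r with depth lay between -0.12 and 0.37. With log10 reads as a covariate, the median r among the 36 pairs was 0.71 and 9 pairs were called. Without both of those rats it was 0.68 with 6 pairs called.

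Including rat G1_80 changed the correlations. Over all 17 rats, 20 of the 36 pairs were positive, the median r was 0.31, and 14 pairs were called as positive and 12 as negative. Genes with 0 reads in that rat then correlated with each other, as Arc with Egr1 (r = 0.99), and inversely with genes that had reads there, as Fosb with Junb (r = -0.76). With that rat, 66.4% of all genes rose with Egr1 at an adjusted p under 0.05 by limma, against 0.874% without it.

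Each gene was also set against the mean of the other 8. Dusp1 had r = 0.92 with that mean, the highest of 13845 genes ranked. Egr1 ranked 2 (r = 0.89), Junb, Egr2, Arc and Nr4a1 each ranked 3 (r = 0.88, 0.88, 0.86 and 0.88) and Npas4 ranked 5 (r = 0.81). Fos and Fosb were lower, at rank 250 (r = 0.65) and rank 406 (r = 0.60). These ranks describe the 16 rats, with shared libraries behind every value. Among genes outside the list, ENSRNOG00000015719 followed the mean of the 9 most closely (r = 0.90, 16 rats), with 59.99 normalized counts in rat G2_152 and 216.7 in rat G2_26, and ENSRNOG00000020542 came next (r = 0.90, from 113.5 to 160.6 in the same rats). The genes that ran most opposite were ENSRNOG00000009754 (r = -0.86, from 155.3 in rat G2_26 to 240.5 in rat G1_134) and ENSRNOG00000002607 (r = -0.83, from 70.5 to 152.5 in the same rats).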

How the data were processed

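The authors trimmed paired-end reads with AlienTrimmer, aligned them to rn5 with STAR (2.4.0a) and counted them per gene with featureCounts (1.4.4). They deposited a signal, normalized counts. Neither the release of the annotation nor the strand setting is given in the sources used here, so antisense reads cannot be told apart. The study left out outlier samples, found by principal components analysis, without naming them. Its vehicle group was then smaller than the 9 vehicle rats used here, so the sets of rats differ. After correction for false discovery the study reported no significant difference in transcripts either. The set of 13 rats was taken from an earlier analysis of these data. The table has 0 columns without a sample. Whole reads were recovered to within 0.01 read for low counts. The tolerance grew in proportion to the count for high counts, where the check is loose. The identifiers were paired with symbols by the list that defines the 9 genes, and all of them are named; the genes most like them were ranked by r with their mean. The genes, lists, motifs and tests were chosen with earlier results of these data known.

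The groups were compared with limma (3.58.1, in R 4.3.3) and Benjamini-Hochberg adjustment. Values were log2(normalized count + 1), which understates changes of low genes, and genes needed a 16-rat median of 5 or more (the 9 genes passed). Each of the 9 genes also had an exact permutation test (two-sided, Python 3.11.15). Permutation p-values of r used 100000 resamples, and jackknife standard errors left out each rat in turn. The fits were tested on simulated data whose changes between groups were larger than those of the 9 genes. The simulation also held more co-varying genes, so power at the sizes seen here was not measured. Alternatives were all 17 and 13 rats, pseudocounts of 0.1 or 5, a filter at a median of 50 or none, recomputed size factors, TMM, edgeR (4.0.16), DESeq2 (1.42.0), covariates and leaving out each rat. DESeq2 on 13 and 17 rats, 1 principal component as a covariate, each group alone and 14 rats were added after seeing the data. Each replicate is 1 rat.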

Additional observations from a re-analysis of the deposited data

Results flagged for a closer look

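A rat was taken to stand apart when its gap to the nearest rat of its group, over the range of that group, passed Dixon's 95% critical value on the log2(normalized count + 1) scale. Of 27 combinations of a gene and a group (vehicle with and without rat G1_80, and ENZ), 9 met this, where chance gives about 1.35 (1 in 20), and both vehicle sets share 9 rats. Rat G1_80 accounted for 8 of them. It was at 0 on the log2 scale for Fosb, Egr1, Egr2, Arc and Dusp1, with the next lowest vehicle rat at 5.97, 7.65, 3.28, 8.72 and 5.85, and it had 0 reads of each. It was highest for Fos at 7.7 (2 reads, next 5.67), for Npas4 at 7.7 (2 reads, next 5.08) and for Junb at 8.69 (4 reads, next 7.43). Among the ENZ rats, rat G2_161 was lowest for Npas4 at 1.71 (2 reads, next 3.5), and the same rat was the lowest ENZ rat in 6 of the 9 genes.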

How the results depend on the processing

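No paired analysis was possible, because the replicate number in the labels is the number of a single rat. The study housed rats in pairs and tested them in squads counterbalanced for treatment. The labels used here name neither cage nor squad, so neither could be fitted. The count of genes called for ENZ was 0 in each setting run, fits without 1 rat included (0 to 0), except DESeq2 on all 17 rats, which called 5, none of them among the 9. The 324 genes at an unadjusted p under 0.05 were 38 over all 17 rats, 625 with no filter, 201 with a median of at least 50, 207 with DESeq2 on 13 rats and 95 with DESeq2 on 17. The median log2 fold change of the 9 genes ran from -0.21 to -0.04 in the fits without 1 rat. Fos, Junb and Npas4 stayed below 0 in every setting run. Depth as a covariate brought the limma value from -0.41 to -0.26 for Fos and from -0.44 to -0.25 for Npas4. For Junb it went from -0.08 to -0.05. The part of depth in these differences was not tested further. Signs turned for Fosb (0.54), Egr1 (0.81), Egr2 (0.069), Arc (0.87), Nr4a1 (0.068) and Dusp1 (0.42) over all 17 rats, for Egr1 (0.044), Arc (0.086) and Nr4a1 (0.083) with DESeq2 on 17 rats, for Egr2 (0.043), Arc (0.023) and Nr4a1 (0.037) with DESeq2 on 13, for Arc (0.018) and Nr4a1 (0.056) with DESeq2 and (0.016 and 0.047) with edgeR on 16, and for Egr1 (0.057), Arc (0.019) and Nr4a1 (0.040) with depth as a covariate. Without 1 rat, Egr1 ran from -0.20 to 0.051, Arc from -0.19 to 0.072 and Nr4a1 from -0.21 to 0.10. Apart from the reads of rat G1_80, the cause was not tested. The 13 called pairs were 8 over 13 rats, 4 with 1 principal component as a covariate, 6 over 14 rats and 6 to 14 without 1 rat. Called under every setting of 13 to 16 rats that tested all 9 genes were 4 pairs, Arc with Nr4a1 and Egr1 with Arc, Nr4a1 and Egr2. The median r of 0.74 was 0.31 over all 17 rats and 0.69 to 0.78 without 1 rat. The median coefficient of variation, 39.1%, was 47.8% over all 17 rats and 36.3% over 13. Depth limits Npas4, Egr2 and Fos most, with as few as 2, 5 and 10 reads in a rat of the 16.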
